A study of Mus musculus with 12 samples.

Results

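The genes described here mark the bile duct epithelium, the cells of the ductular reaction and the fetal liver. The set is a list of 10 genes taken by name from the 54232 genes in the deposited table, namely *Krt7*, *Krt19*, *Sox9*, *Epcam*, *Spp1*, *Cd24a*, *Prom1*, *Afp*, *H19* and *Gpc2*. All of them matched 1 identifier each. Liver mRNA was sequenced from 12 male C57Bl/6J mice, 1 library per mouse, in a comparison that asks how the hepatic transcriptome changes when hepatocytes lose MARCHF6, a ubiquitin ligase of the endoplasmic reticulum. The 6 WT mice were *Marchf6* fl/fl AlbuminCre- and the 6 LKO mice were *Marchf6* fl/fl AlbuminCre+, so the controls carried the floxed alleles as well and differed by the absence of Cre. The mice were littermates, 10 weeks old, kept on chow, and fasted for 4 h before the liver was taken. Cre under the albumin promoter acts in hepatocytes and, because fetal hepatoblasts already express albumin and also give rise to bile ducts, can reach some cholangiocytes. The deleted exon is numbered 2 in one place of the study's notes and 3 in another.

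Cholangiocytes line the bile ducts and are set apart from hepatocytes by the keratins *Krt7* and *Krt19*, the adhesion molecule *Epcam* and the transcription factor *Sox9*. In chronic injury, ducts multiply and hepatocytes can take on parts of the duct programme, a response called the ductular reaction, in which *Spp1*, *Cd24a* and *Prom1* also rise. *Afp*, *H19* and the glypican *Gpc3* are abundant in the fetal liver, are shut down after birth, and return in regeneration and in hepatocellular tumours.

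A promoter sequence is shown for *Prom1*, whose window held a motif of AP-1. Of the 10 members, 6 have a window in the RefSeq table used (GRCm38.p6), with 8 windows between them, and each window holds the 250 bases before a start site. Motifs searched on both strands included GGAATG for the TEAD partners of YAP (found in 12.6% of all 32851 windows of that length), GTGGGAA for RBPJ, the DNA-binding partner of Notch (5.42%), and TGACTCA or TGAGTCA for AP-1, the Fos and Jun dimer (4.46%). The window printed is chr5:44101737-44101986, read 5′ to 3′ on the minus strand, the strand of the gene, and the capitals mark TGACTCA at -88 to -82.
Prom1: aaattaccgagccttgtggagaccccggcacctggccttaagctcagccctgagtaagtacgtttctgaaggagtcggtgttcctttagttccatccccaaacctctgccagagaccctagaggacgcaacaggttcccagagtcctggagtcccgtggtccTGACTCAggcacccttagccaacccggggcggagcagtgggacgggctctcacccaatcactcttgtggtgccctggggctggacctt
The second window of *Prom1* and the windows of *Afp*, *Spp1*, *Gpc2*, *Krt7* and *Epcam* held none of these 3 motifs. A match is a string of letters and not a measured binding site.

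*H19* carries within its exon the hairpin of miR-675, whose mature arms are its best known product. Both arms lie on the minus strand of chromosome 7 (GRCm38.p6), the 3p arm from 142577078 to 142577099 and the 5p arm from 142577112 to 142577133, and the seed is in capitals.
miR-675-5p: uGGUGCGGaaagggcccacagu
miR-675-3p: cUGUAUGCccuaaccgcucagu
The mRNA libraries count the *H19* transcript and do not measure these arms.

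The gene counts of a liver added up to 14860414 to 22111926 reads (medians 15884818 in WT and 17893575 in LKO), so that 3 reads corresponded to 0.129 to 0.207 normalized CPM, read counts scaled to library size with TMM factors. Adjusted p-values are those of edgeR throughout. *Marchf6* itself, counted over all of its exons and so not a measure of the deleted one, had a median of 244 CPM in WT and 227 CPM in LKO livers, with a log2 fold change of -0.09 ± 0.060 (SE). The hepatocyte markers of the tissue label were abundant in every liver, with *Alb* between 64628 and 88637 CPM. One library stood apart from the others. In LKO replicate 1, 40 of 12775 genes with a mean of at least 1 CPM were 2-fold or more above the next highest liver, against 0 to 7 such genes in any of the other 11 livers. The simple keratins *Krt8* and *Krt18*, partners of *Krt7* and *Krt19* that hepatocytes also make, were among them, and *Tnfrsf12a*, the receptor of the ductular mitogen TWEAK, was 1.84-fold above the next liver there. Results of the tested members, and of some other genes and lists, are therefore given with and without this liver. WT libraries carry lower library numbers than LKO libraries, so genotype and library order cannot be told apart.

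None of the 10 genes passed the threshold of an adjusted p under 0.05 between LKO and WT livers (edgeR quasi-likelihood test, Benjamini-Hochberg adjustment over 17509 genes), where 0.428% of all genes tested passed. 9 members passed the filter on low counts (over 2 reads in 6 or more livers) and were tested, and *Gpc2* did not pass it. Of the 9, 7 had a positive and 2 a negative log2 fold change, with a median of 0.25 against 0.00016 over all genes tested. *Sox9* was the only member with an unadjusted p under 0.05, a level reached by 11.7% of all genes. The groups overlapped for every member, while 1.26% of all genes had groups that did not overlap. The study's own test, limma voom, called 0 members and 0.485% of all genes, and DESeq2 called 0 members and 2.17% of all genes, with *Sox9* and *Cd24a* at an unadjusted p under 0.05 in both.

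**Figure D1:**
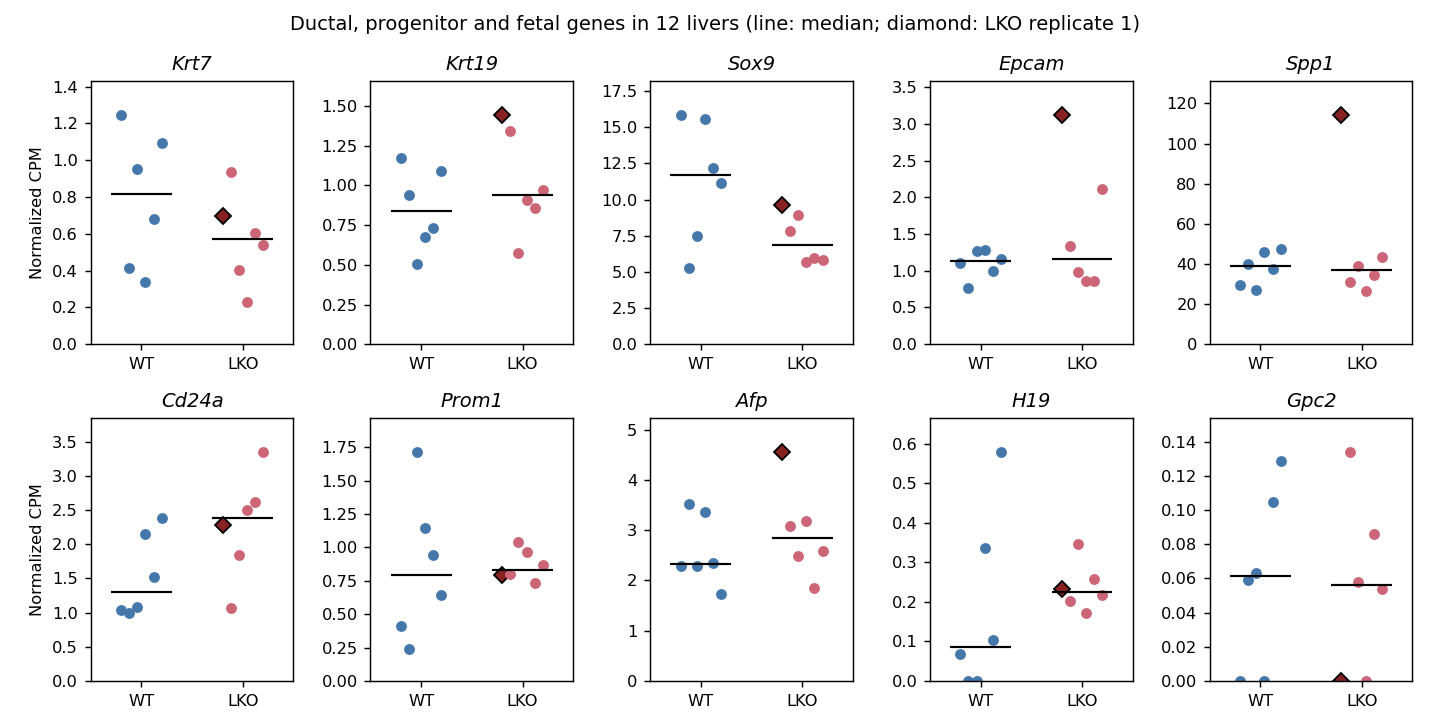
Normalized CPM (vertical axes, linear, each from 0) of the 10 genes in the 6 WT and 6 LKO livers, 1 point per liver, with a line at the group median and a diamond for LKO replicate 1. The groups overlap for every gene, 4 WT livers lie above all LKO livers for *Sox9*, and LKO replicate 1 is the highest liver for *Krt19*, *Epcam*, *Spp1* and *Afp*.

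The members spanned a wide range of levels in these livers. Levels were compared per kilobase of exon, with the union of all annotated exons of a gene as its length. This length can exceed that of the transcript made in liver, which lowers the level per kilobase. The median level over 12 livers was 23.1 CPM per kb for *Spp1* and 2.03 for *Sox9*. It was 0.776 for *Cd24a*, 0.754 for *Afp*, 0.516 for *Epcam* and 0.499 for *Krt19*. *Prom1* followed at 0.116, *Krt7* at 0.0910, *H19* at 0.0848 and *Gpc2* at 0.0136 CPM per kb. *Spp1* did not overlap with any other member, since its lowest liver had 16.0 CPM per kb and the highest liver of *Sox9* had 3.83. *Sox9*, *Cd24a*, *Afp*, *Epcam* and *Krt19* each overlapped with their neighbour in this order, and so did *Prom1*, *Krt7*, *H19* and *Gpc2*, whereas the lowest liver of *Krt19* (0.274) lay above the highest of *Prom1* (0.239). Before division by length *Krt19* (0.508 to 1.44 CPM), *Prom1* (0.235 to 1.71 CPM) and *Krt7* (0.228 to 1.24 CPM) overlapped. The union lengths were 1855 nt for *Krt19*, 7175 nt for *Prom1* and 7049 nt for *Krt7*, so their separation per kilobase depends on this choice of length. For scale, *Alb* had a median of 30018 CPM per kb and the hepatocyte factor *Hnf4a* 187 CPM per kb. Among tested genes *Spp1* stood at the 91.3rd percentile of this level per kilobase and *Sox9* at the 51.5th. The other tested members lay between the 6.99th and the 35.5th. In bulk liver, fewer cells of a type and less RNA per cell cannot be told apart.

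Among the duct keratins, *Krt7* (chr15:101411043-101430313, plus strand, GRCm38) and *Krt19* (chr11:100140810-100148665, minus strand) were counted with few reads. *Krt7*, a type II keratin of simple epithelia, ranged from 0.337 to 1.24 CPM in WT livers with a median of 0.817, and from 0.228 to 0.938 in LKO livers with a median of 0.571, which is 5 to 18 and 4 to 15 reads. The ranges overlapped over most of their length and 1 of 6 LKO livers lay above the WT mean. LKO against WT, the log2 fold change was -0.46 ± 0.36 (SE), with a 95% interval from -1.23 to 0.31 and an edgeR adjusted p of 0.668. It was -0.53 without LKO replicate 1.

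*Krt19*, the type I keratin used most to outline ducts, ranged from 0.508 to 1.17 CPM around a median of 0.837 in WT livers, and from 0.577 to 1.44 around 0.942 in LKO livers. LKO replicate 1 was the highest liver, 1.08-fold above LKO replicate 2, and 5 of 6 LKO livers lay above the WT mean. Its log2 fold change was 0.25 ± 0.26 (interval -0.31 to 0.82, adjusted p = 0.758) and 0.12 without LKO replicate 1. The intervals of both keratins reached from a fall to a rise. Mesothelium, the sheet of cells on the liver capsule, also makes both keratins. All 6 of its markers were detected and tested and none was called, with summed levels of 2.36 to 19.9 CPM in WT and 3.19 to 10.8 CPM in LKO livers, and *Upk1b*, a uroplakin of that layer, had a log2 fold change of -1.10 ± 0.53 (adjusted p = 0.443). The part of the capsule in the keratin values was not tested.

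*Sox9* (chr11:112782224-112787760, plus strand), the transcription factor of ductal and periportal progenitor-like cells, was the member with the lowest p. Its levels were 15.8, 5.30, 7.49, 15.5, 12.2 and 11.1 CPM in WT replicates 1 to 6. They were 9.63, 7.84, 8.95, 5.70, 5.94 and 5.84 CPM in LKO replicates 1 to 6. Every LKO liver lay below the WT mean of 11.2 ± 4.24 (SD, n = 6), and all of them lay within the WT range, which WT replicates 2 and 3 extended downwards. The mean in LKO livers was 7.31 ± 1.73 CPM (SD, n = 6). The log2 fold change was -0.62 ± 0.24 (95% interval -1.13 to -0.11), with an unadjusted p of 0.0210 and an adjusted p of 0.320. The exact permutation test of mean log2 CPM, two-sided, which goes through every way to split the 12 livers evenly, gave p = 0.0909. With 1 liver left out in turn this exact p ranged from 0.0195 (without WT replicate 2) to 0.167 (without WT replicate 1 or 4), and the edgeR unadjusted p was no longer under 0.05 without WT replicate 1 or 4. Without LKO replicate 1 the log2 fold change was -0.72 (adjusted p = 0.273). *Sox9* was thus lower in LKO livers by its mean and did not pass the test adjusted over all genes.

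The surface proteins of duct and progenitor cells had log2 fold changes from 0.02 (*Prom1*) to 0.59 (*Cd24a*), none past the test. The sign for *Prom1* changed with the livers that entered. *Epcam* (chr17:87635979-87651129, plus strand), a homophilic adhesion molecule, ranged from 0.765 to 1.28 CPM in WT livers with a median of 1.13. In LKO livers it ranged from 0.854 to 3.12 CPM with a median of 1.16. The medians were close, and the excess in LKO lay mainly in replicate 1 with 3.12 and replicate 6 with 2.11 CPM, both above every WT liver. LKO replicate 2, at 1.34 CPM, was just above the highest WT liver at 1.28 CPM. It had a log2 fold change of 0.51 ± 0.32, which is 1.42-fold with a 95% interval from 0.881-fold to 2.30-fold (adjusted p = 0.576), and 0.16 without LKO replicate 1.

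*Cd24a* (chr10:43578284-43584265, plus strand), a small lipid-anchored glycoprotein, ranged from 1.00 to 2.38 CPM in WT livers with a median of 1.30. In LKO livers it ranged from 1.07 to 3.35 CPM with a median of 2.39. 5 of 6 LKO livers lay above the WT mean, and the highest WT livers, replicates 6 and 4 at 2.38 and 2.15 CPM, reached into the LKO range. The log2 fold change was 0.59 ± 0.28 (interval -0.0037 to 1.18), with an unadjusted p of 0.0513, an adjusted p of 0.429 and an exact permutation p of 0.102. Leaving out LKO replicate 1 left it at 0.59. With 1 liver left out in turn the exact permutation p ranged from 0.0325 (without LKO replicate 2) to 0.193 (without LKO replicate 6), and without WT replicate 6 it was 0.0498. B cells and neutrophils also carry *Cd24a*. The 5 B cell markers summed to 0.824 to 1.57 CPM in WT and 1.53 to 2.60 CPM in LKO livers, none was called, and all 5 had positive log2 fold changes with a median of 0.87, among them *Ms4a1* (0.87 ± 0.31). Of 4 neutrophil markers, *S100a8* was the only one tested. It had 4 to 38 reads in LKO livers against no more than 2 in WT livers, passed the filter on low counts only through the LKO livers, and is given without a test. Of those not tested, *Ngp* had 0 reads in WT and 0 to 13 in LKO livers, *Mpo* 0 and 0 to 2, and *Ly6g* 0 to 2 in WT and 0 in LKO livers. The part of these cells in the *Cd24a* values was not tested.

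*Prom1* (chr5:43993620-44102032, minus strand), the pentaspan membrane protein CD133, had medians of 0.793 CPM in WT and 0.835 CPM in LKO livers. The spread was wider in WT livers, from 0.235 to 1.71 CPM, than in LKO livers, from 0.731 to 1.04 CPM, and the LKO range lay inside the WT range. The log2 fold change was 0.02 ± 0.35 with an interval from -0.73 to 0.78 (adjusted p = 0.990), which leaves room for a change in either direction. The sign turned with the livers that entered, from -0.18 without WT replicate 2 to 0.34 without WT replicate 3, and it was 0.05 without LKO replicate 1.

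*Spp1* (chr5:104435118-104441050, plus strand) encodes osteopontin, a secreted ligand of integrins and CD44 made by cholangiocytes and by some macrophages. Its levels were 29.3, 40.1, 26.8, 45.7, 37.3 and 47.6 CPM in WT replicates 1 to 6. They were 114, 30.9, 39.0, 26.4, 34.7 and 43.6 CPM in LKO replicates 1 to 6. LKO replicate 1 was 2.39-fold above the next highest liver and LKO replicate 4 was just below the WT range, while the other 4 LKO livers lay inside it. The log2 fold change over 12 livers was 0.35 ± 0.30 (interval -0.30 to 1.00, adjusted p = 0.705). Without LKO replicate 1 it was -0.11 ± 0.16 (adjusted p = 0.833), so its sign rested on that liver.

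The receptors of osteopontin were all measurable. None of the 7 was called, all 7 had positive log2 fold changes with a median of 0.07, and 2 had an unadjusted p under 0.05. *Cd44*, the hyaluronan and osteopontin receptor, had 5.32 CPM in the median WT and 8.34 CPM in the median LKO liver (log2 fold change 0.60 ± 0.18, adjusted p = 0.186). The integrin subunit *Itga4* had medians of 4.32 and 5.54 CPM (0.59 ± 0.18, adjusted p = 0.197). Without LKO replicate 1 the median of the 7 was 0.003, and the log2 fold changes were 0.48 for *Cd44* and 0.52 for *Itga4*. The 9 macrophage markers, whose cells carry *Cd44* and *Itga4* and can make *Spp1*, summed to 91.8 to 110.6 CPM in WT and 119.954 to 178.8 CPM in LKO livers. All 9 had positive log2 fold changes with a median of 0.44, 7 had an unadjusted p under 0.05, and 1 was called higher, the tetraspanin *Cd9* (0.71 ± 0.11, adjusted p = 0.00812), where 0.274% of all genes were called higher. Without LKO replicate 1 *Cd9* had 0.65 (adjusted p = 0.0178). The liver with the highest macrophage sum was LKO replicate 3, where *Spp1* had 39.0 CPM. *Adgre1*, *Clec4f*, *Csf1r*, *Marco* and *Vsig4* were each highest in that liver. *Gpnmb* (27 reads, 2.90-fold above the next liver), *Cd68* (1.39-fold) and *Cd9* (1.17-fold) were highest in LKO replicate 1, as *Spp1* was. *Trem2* was highest in WT replicate 6. The part of macrophages in the *Spp1* and receptor values was not tested.

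**Figure D2:**
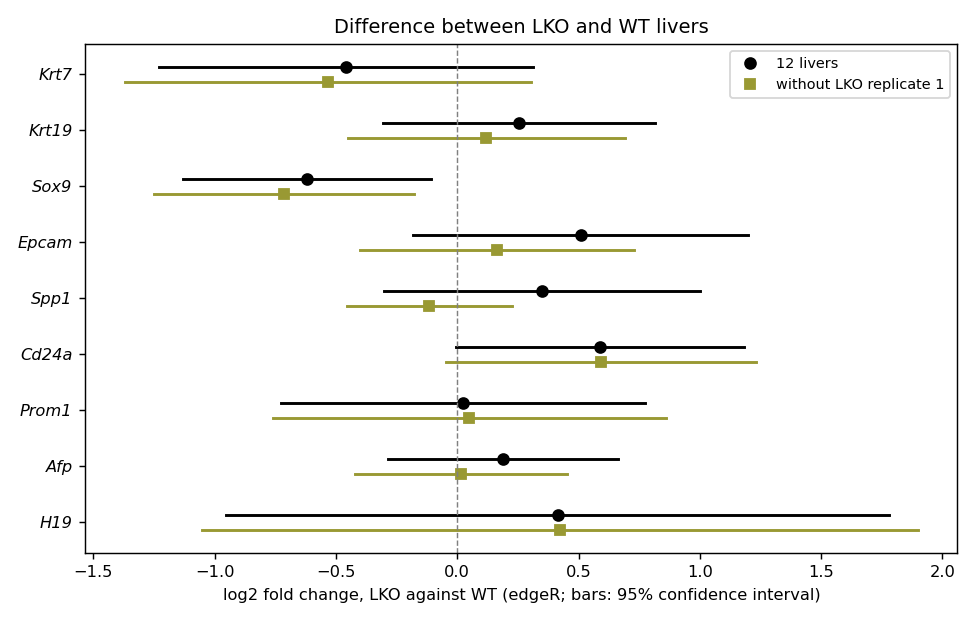
Log2 fold change of LKO against WT livers (horizontal axis, edgeR) for the 9 tested genes, with 95% confidence intervals, over 12 livers (circles) and without LKO replicate 1 (squares). Only the interval of *Sox9* stays below 0, from -1.13 to -0.11, and *Spp1* moves from 0.35 to -0.11 when that liver is left out.

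Of the fetal genes, *Afp* (chr5:90490737-90508907, plus strand), the fetal counterpart of albumin in serum, was detected in every liver at a low level. It ranged from 1.74 to 3.53 CPM in WT livers with a median of 2.32, and from 1.85 to 4.56 CPM in LKO livers with a median of 2.84. LKO replicate 1 was again the highest, 1.29-fold above WT replicate 2, and 4 of 6 LKO livers lay above the WT mean. Its log2 fold change was 0.19 ± 0.22 (interval -0.28 to 0.66, adjusted p = 0.796) and 0.02 without LKO replicate 1.

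*H19* (chr7:142575529-142578143, minus strand), a maternally expressed imprinted RNA, was near the limit of detection with 0 to 9 reads in WT and 3 to 6 reads in LKO livers. WT values ranged from 0 to 0.579 CPM with a median of 0.0869, and LKO values from 0.171 to 0.346 CPM with a median of 0.224, inside the WT range. Its log2 fold change was 0.41 ± 0.64 (interval -0.95 to 1.78, adjusted p = 0.858), an interval too wide at this depth to separate a fall from a rise, and it was 0.42 without LKO replicate 1. The exact permutation p was 0.182 over 12 livers, and with 1 liver left out it ranged from 0.0260 (without WT replicate 6, which held the highest value) to 0.355 (without WT replicate 2). In the annotation 225 nt of its exons overlap other genes, *Mir675* among them.

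*Gpc2* (chr5:138273655-138280005, minus strand), a glypican of the developing nervous system, had 0 to 2 reads in every liver of both groups. No fold is given, the exact permutation p was 0.682, and any difference was not detectable at this depth. In the annotation 2376 of its 4274 exonic nt overlap *Gm43720*.

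The remaining glypicans, proteoglycans anchored at the cell surface, were not uniform. Of 4 tested of 5, *Gpc6* was called higher (log2 fold change 2.06 ± 0.15, adjusted p = 4.06e-06, and 2.11 without LKO replicate 1). It had 0.785 to 1.24 CPM in WT and 3.67 to 5.13 CPM in LKO livers, groups that did not overlap. Of all genes tested, 0.274% were called higher and 1.26% had groups that did not overlap. The list was chosen with earlier results of these data known. *Gpc3*, the oncofetal glypican of liver tumours, had medians of 1.39 and 0.965 CPM and a log2 fold change of -0.44 ± 0.37 (adjusted p = 0.698). *Gpc6* is not among the fetal liver genes listed here.

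The other fetal genes were low or not detected. Of 8, only *Gpc3* and the RNA-binding protein *Igf2bp3* (log2 fold change 0.12 ± 0.33) could be tested, and neither was called. *Igf2*, the fetal growth factor next to *H19*, had 0 or 1 read in WT livers and 0 in LKO livers, and *Dlk1* had 0 reads in every liver, which allows up to 3 reads, or 0.129 to 0.207 CPM, per library. Among 8 imprinted growth genes, which share 2 names with that list, 6 were tested, none was called and all 6 had positive log2 fold changes with a median of 0.33, or 0.20 without LKO replicate 1. *Peg3*, a paternally expressed zinc finger gene, came nearest. It ranged from 8.36 to 19.5 CPM in WT and from 17.1 to 30.3 CPM in LKO livers (log2 fold change 0.93 ± 0.22, adjusted p = 0.0828), and it passed the threshold in DESeq2, with no filter, with the replicate block and without WT replicate 6. Without LKO replicate 1 its adjusted p was 0.0784.

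Factors that act on *Afp* and *H19* after birth were abundant enough to test. All 5 were tested, none was called, and all 5 log2 fold changes were negative, from -0.22 to -0.09. *Zhx2*, the repressor mapped through the persistence of *Afp* in adult mice, had 22.5 CPM in the median WT and 21.2 CPM in the median LKO liver (-0.09 ± 0.072, adjusted p = 0.667). *Zbtb20*, a repressor of *Afp*, had 316 and 252 CPM (-0.22 ± 0.14, adjusted p = 0.553). *Zhx3* (-0.17 ± 0.087) and *Zhx1* (-0.12 ± 0.064), the relatives of *Zhx2*, also had negative values.

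The hepatocyte identity genes are those that fall when hepatocytes lose their differentiated state. Of 14 genes none was called, 10 had negative and 4 positive log2 fold changes with a median of -0.07, and 4 had an unadjusted p under 0.05. *Foxa3*, a pioneer factor of endoderm, had the lowest p (-0.40 ± 0.13, adjusted p = 0.214). *Alb* had -0.18 ± 0.084 and *Hnf4a* -0.06 ± 0.12.

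The other genes of the bile ducts were mostly low. Of 16, 12 were tested, none was called, and the median log2 fold change was -0.08. *Cldn7*, a tight junction protein, had the largest positive value among those named (0.54 ± 0.37, adjusted p = 0.615), and 0.41 without LKO replicate 1. The chloride channel *Cftr*, with 0 to 8 reads in WT and 2 to 9 in LKO livers, had 0.12 ± 0.58. The secretin receptor *Sctr*, a marker of bile ducts in the liver, had 0 reads in all WT livers and 0 to 8 in LKO livers. *Cldn7*, *Cftr* and *Sctr* thus had at most 15 reads in any liver.

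Pathways known to drive the duct programme had no called gene. Of 13 Notch genes all were tested, with a median log2 fold change of -0.02. The targets *Hey1* (0.50 ± 0.26) and *Nrarp* (-0.75 ± 0.44) had the lowest p-values and pointed in opposite directions, on 1 to 13 reads per liver. Of 12 YAP pathway genes, with a median of 0.01, the DNA-binding partners *Tead4* (-0.64 ± 0.28, adjusted p = 0.404) and *Tead3* (-0.17 ± 0.10) came first. Of 11 signals and markers of the ductular reaction 9 were tested, with a median of 0.09 and of -0.07 without LKO replicate 1. *Vim*, the intermediate filament of mesenchymal and reactive ductal cells, had 0.48 ± 0.16 (adjusted p = 0.232) and 0.31 without that liver, and *Tnfsf12*, the TWEAK ligand, had 0.35 ± 0.13 (adjusted p = 0.279).

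**Figure D3:**
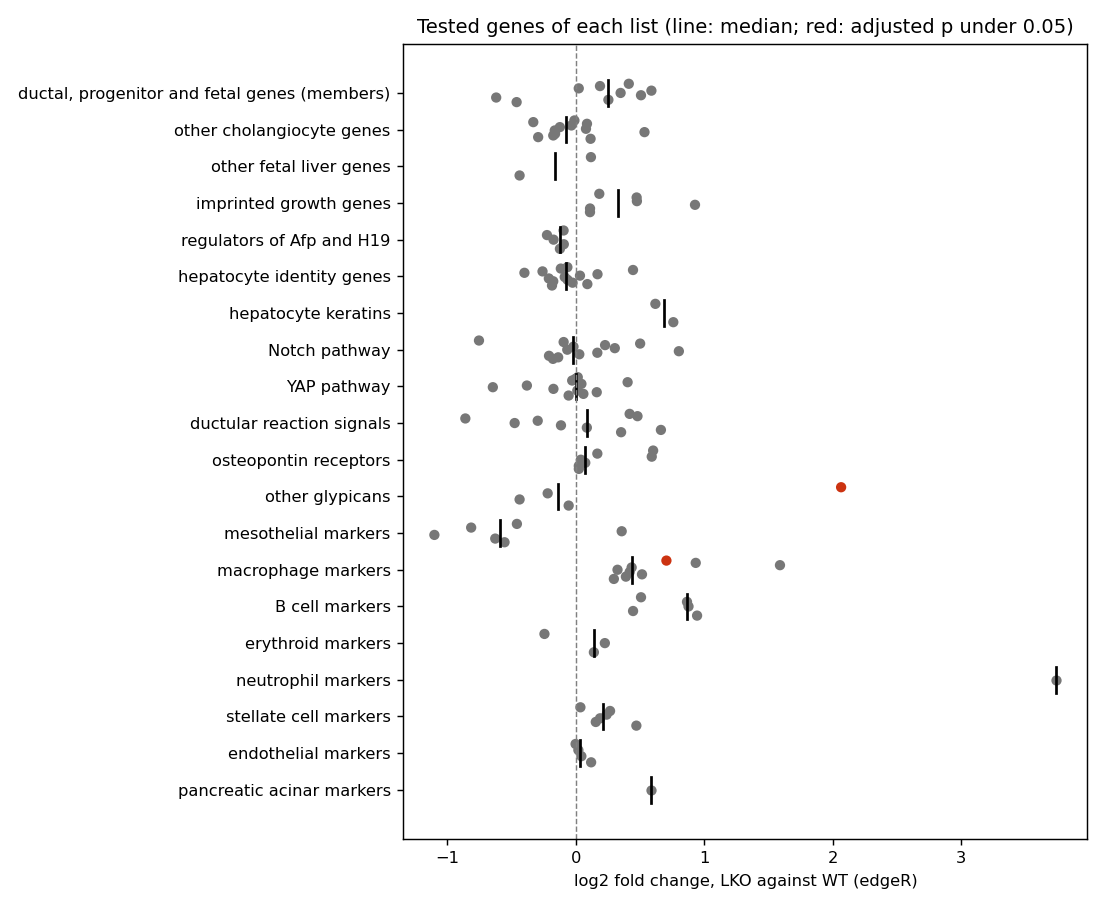
Log2 fold change of LKO against WT livers (horizontal axis, edgeR) of every tested gene in the 10 genes described here and in each companion and marker list, 1 point per gene, with a line at the list's median and red for an adjusted p under 0.05. Only *Gpc6* among the glypicans and *Cd9* among the macrophage markers are red, and the single neutrophil point, *S100a8*, is a fitted value against WT livers with 2 reads or fewer.

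Markers of other cell types were examined for the same livers. The 6 stellate cell markers had a median log2 fold change of 0.22 and summed to 77.5 to 109 CPM in WT and 82.2 to 130 CPM in LKO livers, led by *Lrat* (0.47 ± 0.15) and *Colec11* (0.24 ± 0.14). Without LKO replicate 1 their median was 0.11, with *Lrat* at 0.35 and *Colec11* at 0.24. The 4 endothelial markers had a median of 0.03, with *Pecam1* at 0.12 ± 0.10 and *Stab2* at 0.04 ± 0.063. Of 4 erythroid markers 3 were tested, with *Alas2* at -0.24 ± 0.11 and *Hba-a1* at 0.23 ± 0.15. Of 4 pancreatic acinar markers only *Cela2a* was tested (0.58 ± 0.47), and *Pnlip* had 0 reads in every liver. None of these genes was called.

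The median log2 fold change of the tested members, 0.25, was 0.05 without the liver that stood apart. LKO replicate 1 was the highest liver for 4 of the 10, namely *Krt19*, *Epcam*, *Spp1* and *Afp*. Relative to the WT median it had 2.94 times the level of *Spp1*, 2.75 times that of *Epcam* and 1.96 times that of *Afp*, and 0.825 times that of *Sox9*. In the same liver *Krt8* was at 522 CPM and *Krt18* at 615 CPM, which is 5.25 and 4.75 times the WT median, and *Tnfrsf12a* at 43.0 CPM was 7.72 times its WT median. *Krt8* has a near-identical pseudogene, so its counts are uncertain.

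WT replicate 2 was the next highest liver for these 3 genes, with 160 CPM for *Krt8*, 230 for *Krt18* and 23.4 for *Tnfrsf12a*. It was also the next highest liver for 14 of the 40 genes that stood apart in LKO replicate 1, and lay above the WT median for 33 of them. The members divided there, since WT replicate 2 had 1.52 times the WT median for *Afp*, 1.04 times for *Spp1*, 0.676 times for *Epcam* and 0.454 times for *Sox9*. It was the single lowest of all 12 livers for 4 members, namely *Sox9*, *Epcam*, *Cd24a* and *Prom1*. Over 12 livers *Krt8* had a log2 fold change of 0.76 ± 0.37 (adjusted p = 0.453) and 0.09 without LKO replicate 1, and *Krt18* had 0.62 ± 0.36 (adjusted p = 0.536) and 0.01 without it. The macrophage and B cell medians, at 0.43 and 0.91 without that liver, did not rest on it.

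**Figure D4:**
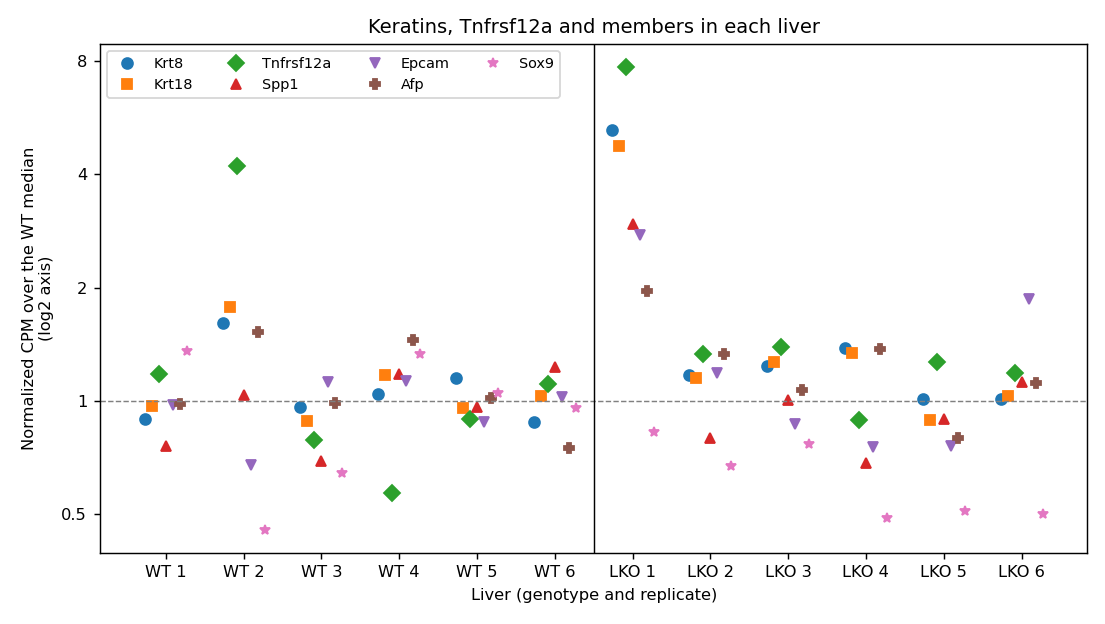
Level of 3 genes high in LKO replicate 1 (*Krt8*, *Krt18*, *Tnfrsf12a*) and of 4 members (*Spp1*, *Epcam*, *Afp*, *Sox9*) in each of the 12 livers, as normalized CPM over the WT median on a log2 axis. *Krt8*, *Krt18* and *Tnfrsf12a* reach 4.75 to 7.72 times the WT median in LKO replicate 1, where *Spp1*, *Epcam* and *Afp* are also highest and *Sox9* is at 0.825.

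The members with a mean of at least 1 CPM did not vary as a unit from liver to liver. Over 12 livers with the genotype means removed, the largest Pearson correlation between a pair of them was that of *Epcam* and *Spp1* (r = 0.71, Spearman rho = 0.49), *Sox9* and *Afp* had r = 0.035, and *Cd24a* and *Afp* had r = -0.23. The libraries share their depth and composition across these points, and the values are a description. Among 12774 candidate genes, the patterns most like *Spp1* were those of *Arhgef5* (r = 0.92, and 0.70 without LKO replicate 1) and *Dhx37* (0.92 and 0.80). *Sox9* was most like *Trim13* (0.91 and 0.91) and *Gm10069* (0.89 and 0.89). *Epcam* was most like *Mrpl51* (0.90 and 0.79) and *E030030I06Rik* (0.86 and 0.81). *Cd24a* was most like *Sema3b* (0.92 and 0.92) and *Cdkl2* (0.90 and 0.93). *Afp* was most like *Mrps18a* (0.91 and 0.86) and *Fbxo6* (0.90 and 0.89). In each bracket the second value is without LKO replicate 1. None of these 10 genes was itself a member or a gene of the companion lists. They were picked for the highest r among 12774 candidates, so a high r follows in part from that choice and was not tested.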

How the data were processed

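Liver mRNA of 6 WT and 6 LKO mice was measured by RNA-seq, and the genotype label of each mouse gave its group. Per the study's methods and the submitters' processing notes, libraries were made with a KAPA mRNA HyperPrep kit, and the authors used FastQC 0.11.15, Trimmomatic 0.36, HISAT2 2.1.0 (GRCm38.p6) and HTSeq 0.6.1. The table deposited by the authors holds raw read counts for Ensembl genes, neither normalized nor filtered. The strand setting and overlap mode of the counting are not given in the sources used here, so overlapping and antisense genes are uncertain (exons of *Krt7*, *Spp1*, *Prom1*, *H19* and *Gpc2* overlap other genes by 77, 309, 424, 225 and 2376 nt).

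Coordinates and exon lengths (union of all annotated exons) came from GENCODE M21, which held 54165 of 54232 identifiers. The filter kept genes with over 2 reads in 6 or more livers. After TMM scaling, edgeR 4.0.16 (R 4.3.3) compared the genotypes by its quasi-likelihood test, with no other term in the model. Log2 CPM used a prior count of 0.5. Single members were also compared with an exact permutation test, whose smallest p is 0.0022. Depths and the floor of 3 reads cover counting error only. The edgeR step was checked on simulated counts. RefSeq promoter windows were matched by symbol, for 6 of 10 members.

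The text names every member, in each list every gene called or otherwise the 2 genes with the lowest p, a few genes of known role (*Zhx2*, *Zbtb20*, *Gpc3*, *Gpc6*, *Igf2*, *Dlk1*, *Cftr*, *Hnf4a*, *Alb*, *Krt8*, *Krt18* and *Marchf6*), and for each member of at least 1 CPM the 2 genes most correlated with it. Outside this rule stand *Tnfrsf12a*, *Sctr*, *Ngp*, *Mpo*, *Ly6g* and *Pnlip*, picked with their values in view. Also outside it are the macrophage markers other than *Cd9*, all named for the liver in which each was highest. Some genes of the rule and 1 motif search are not reported here. The members and lists were chosen with earlier results of these data known, so no p over a list is given. Alternatives were RLE and upper-quartile scaling, no filter, at least 10 reads in every liver, filterByExpr, limma 3.58.1 voom (the study's test), a block for the replicate number, DESeq2 1.42.0, a prior count of 2 for the permutation test, and each liver left out in turn.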

Additional observations from a re-analysis of the deposited data

Results flagged for a closer look

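In each group of 6 livers the gap between an extreme liver and its nearest neighbour was divided by the range of the group, and values above Dixon's 95% critical value are listed. Of 117 groups from 62 genes 9 passed. A chance count of 5.85 would need independent groups and genes chosen without these data. Some genes were picked by p-value or by likeness to a member, so no excess is read from it. 7 groups with at most 3 reads in every liver were left out.

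LKO replicate 1 accounted for 5 of the 9, as the highest LKO liver for *Spp1* (0.804), *Krt8* (0.913), *Krt18* (0.883), *Arhgef5* (0.807) and *Vim* (0.633). *Spp1* was the only member among them, and *Arhgef5* was searched only because its pattern was most like that of *Spp1*, so it is no separate observation and chance does not apply to it. WT replicate 2 was the highest WT liver for *Krt8* (0.62525) and *Krt18* (0.675). *Nrarp* was lowest in LKO replicate 2 (0.653) and *Ms4a1* was highest in WT replicate 5 (0.661), both on fewer than 10 reads per liver.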

How the results depend on the processing

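Under each of the alternatives 0 members were called, and of 175 values of single members 169 kept their direction and side of the threshold and 6 changed sign. With 1 liver left out in turn, the log2 fold change of *Spp1* ranged from -0.11 (without LKO replicate 1) to 0.47, and that of *Prom1* from -0.18 (without WT replicate 2) to 0.34. Of 963 values of other genes 947 kept direction and side, 7 passed the threshold only under an alternative and 9 changed sign. Those that changed sign were small and likewise came from leaving out 1 liver, with ranges of -0.14 to 0.25 for *Cftr*, -0.14 to 0.0202 for *Hnf4a*, -0.18 to 0.060 for *Trim13* and -0.0293 to 0.29 for *Igf2bp3*.

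The number of genes called in all, 75, was 114 with no filter and 351 in DESeq2, and ranged from 38 (without WT replicate 5) to 132 (without WT replicate 3) when 1 liver was left out. In the companion lists 1 gene was called, *Gpc6*, and with no filter, in DESeq2, with the replicate block and without WT replicate 6 there were 2, *Peg3* being the other, so that leaving out 1 liver gave 1 to 2. Members not tested numbered 1, against 0 with no filter, 5 with at least 10 reads in every liver and 2 with filterByExpr. No member had a permutation p under 0.05 over 12 livers, and 0 to 2 had one when 1 liver was left out, *Sox9* without WT replicate 2, *Cd24a* and *H19* without WT replicate 6 and *Cd24a* without LKO replicate 2. *S100a8* entered the test only through the LKO livers, so no test of it is given under any setting. The cause of these changes was not tested, apart from the number of genes or livers that entered.

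The replicate numbers were not treated as pairs, since no source says that they mark a shared litter, batch or day. Same-numbered livers had correlations of their deviations between -0.066 and 0.13, with 4 of 6 over 0.1. For 3 of 6 WT livers the LKO liver of highest correlation had the same number, so a pairing is not excluded by these values. With the replicate block 97 genes were called, 60 of them shared with the 75, and 0 were members. *S100a8* did not pass the filter when any LKO liver was left out, and *Cftr* did not in 6 of the 12 fits without 1 liver. *Krt7*, *Krt19*, *Prom1*, *H19* and *Gpc2* had too few reads for firm statements.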
